A study of Mus musculus with 18 samples.

Results

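Untreated bone marrow-derived macrophages (BMMs) without glucocorticoid-induced leucine zipper (GILZ) were compared with WT BMMs over all genes, in 3 GILZ KO and 3 WT libraries of the 18 libraries in the series. Of 38887 genes in the files, 12621 had enough reads to be tested. BMMs are macrophages grown from marrow with the growth factor M-CSF, here from female mice labelled C57BL/6J, and each library was made from poly(A)-selected RNA of a separate preparation. GILZ KO mice carry loxP sites around exon 6 of the GILZ gene Tsc22d3 together with Cre recombinase in the Lyz2 gene, which is active in myeloid cells. Per the study's methods the mice called WT carry the same Cre allele without the loxP sites, while the labels give only WT. The 3 untreated GILZ TG libraries (Cre in Lyz2 and a GILZ cDNA switched on from the ROSA26 locus) entered the fit for the estimate of the spread. Their values stand beside those of some single genes. Libraries treated with LPS (100 ng/ml for 4 h) were used to ask whether a difference changed with LPS.

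GILZ is a leucine zipper protein whose gene is switched on by the glucocorticoid receptor, and it is known for dampening inflammatory signalling in macrophages. Resting macrophages also keep a low level of interferon-stimulated genes, which rests on small amounts of type I interferon acting through its receptor. The response runs through a sequence called the interferon-stimulated response element (ISRE) in front of the target genes.

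The 6 libraries held between 20501046 and 29832430 reads on genes. Macrophage markers were abundant in each of them. Without Lyz2, 13 markers summed to 4735 to 5392 TPM (a level corrected for transcript length and depth) in WT and 4862 to 5252 TPM in GILZ KO. Markers of neutrophils summed to 42.4 to 80.5 TPM in WT and 46.1 to 79.3 TPM in GILZ KO, those of stromal cells to 25.7 to 44.9 TPM and 13.4 to 28.5 TPM, and those of endothelial cells to 27.1 to 32.8 TPM and 36.2 to 42.8 TPM. Cd3d, Cd3e, Cd3g, Trac, Ly6g and Pax5, which define T cells, neutrophils and B cells, were at 0 in all 6 libraries. The whole lists were not at 0, with sums of 53.0 to 79.2 TPM in WT and 65.7 to 85.7 TPM in GILZ KO for 10 T and NK cell markers and 31.4 to 35.4 TPM and 31.6 to 34.7 TPM for 8 B and plasma cell markers. Lyz2 was the one marker called by edgeR at an adjusted p-value of 0.05.

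The targeted gene Tsc22d3 (ENSMUSG00000031431, chrX:140539528-140600659 in GRCm38, minus strand) was at 15.8, 14.9 and 18.8 TPM in the WT libraries and at 1.89, 2.81 and 2.31 TPM in the GILZ KO libraries. The groups did not overlap, and 53 to 70 reads per library were still counted on the gene in GILZ KO against 468 to 526 in WT. The mean length of its transcripts, weighted by their estimated share, was 1962 to 1971 bases in WT, 2069 to 2265 bases in GILZ KO and 1306 to 1369 bases in GILZ TG. The isoforms counted on the gene therefore differed in length between the genotypes, with no overlap between the 3 genotypes.

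Lyz2 (ENSMUSG00000069516, chr10:117277331-117282321, minus strand), the lysozyme gene that holds Cre, was at 11048, 12070 and 15401 TPM in WT. In GILZ KO it was at 28.2, 45.8 and 26.7 TPM, and in GILZ TG at 17.2, 28.7 and 53.1 TPM. The Cre insertion at this locus is known to disrupt Lyz2. WT therefore differed from GILZ KO at the Cre locus as well as at Tsc22d3, although the methods describe the Cre allele in both, and in what follows the loss of GILZ, the loss of Lyz2 RNA and any other difference in genetic background cannot be told apart. Lyz1 (0.58 on the log2 scale, unadjusted p = 0.032), the neighbouring paralog, was at 2.79 to 4.8 TPM in WT and 5.23 to 6.65 TPM in GILZ KO, and reads of these near-identical genes may be shared between them.

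With edgeR's quasi-likelihood test, 12 genes or 0.0951% of those tested had an adjusted p-value under 0.05, and 6 of them were higher in GILZ KO. The 10 besides Tsc22d3 and Lyz2 were Kitl, Nnt, Wdfy1, Cgnl1, Galnt12 and Mki67, which rose, and Gdf3, Entpd4b, Prl2c2 and Bcl2a1b, which fell. None of the 10 had overlapping levels between GILZ KO and WT.

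**Figure D1:**
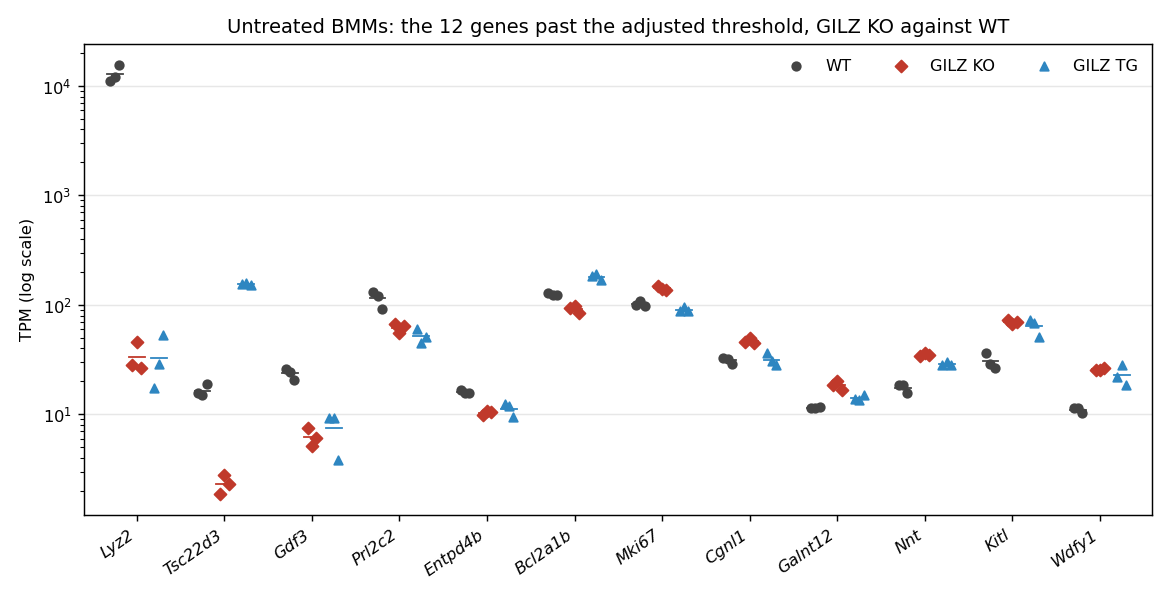
Level of the 12 genes with an adjusted p-value under 0.05 in untreated BMMs, in TPM on a log axis, with 1 point per library (3 per genotype) and a line at the mean. WT and GILZ KO points do not overlap for any of the genes, and Lyz2 is at 11048 TPM or more in WT against 53.1 TPM or less in GILZ KO and GILZ TG.

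Kitl (ENSMUSG00000019966, chr10:100015630-100100416, plus strand) encodes stem cell factor, the ligand of the receptor KIT. It was at 36.0, 28.8 and 26.4 TPM in WT and at 72.7, 67.5 and 69.8 TPM in GILZ KO, a rise of 1.08 on the log2 scale (standard error 0.09, adjusted p = 0.00102 from edgeR). GILZ TG was at 73.1, 67.9 and 51.3 TPM, so that GILZ KO and GILZ TG both lay above WT. Kitl lies 17.3 Mb from Lyz2 on the same chromosome. The difference was gone after LPS, where the log2 fold change between GILZ KO and WT was 0.05 (adjusted p = 0.93 from edgeR).

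Nnt and Wdfy1 were the other genes with a large rise. Nnt (ENSMUSG00000025453, chr13:119335448-119408997, minus strand) encodes the mitochondrial transhydrogenase that supplies NADPH for antioxidant defence, and C57BL/6J mice are known to carry a deletion in it. It was at 18.4, 18.5 and 15.7 TPM in WT and 33.8, 36.5 and 34.6 TPM in GILZ KO (log2 fold change 0.95, standard error 0.06, adjusted p = 6.72e-05 from edgeR). Wdfy1 (ENSMUSG00000073643, chr1:79702262-79776143, minus strand), an adaptor that binds endosomes, was at 10.3 to 11.46 TPM in WT and 25.5, 25.7 and 26.3 TPM in GILZ KO (log2 fold change 1.62, standard error 0.16, adjusted p = 0.00291 from edgeR). The mean length of its transcripts also differed, with 2726 to 3025 bases in WT and 3762 to 4118 bases in GILZ KO. In GILZ TG, Nnt was at 28.2 to 30.1 TPM and Wdfy1 at 18.7 to 28.2 TPM, above all WT libraries for both genes.

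Nnt and Wdfy1 belong to a list of 9 genes known to differ between substrains of C57BL/6, of which 7 could be tested. Of these, edgeR called 3 and DESeq2 called 5, against 0.0951% and 0.626% of all genes tested. The list was chosen with earlier results of these data known, and its members Entpd4 and Entpd4b are near-identical copies. Entpd4b (ENSMUSG00000022066, chr14:69555424-69585520), a Golgi nucleotidase gene, fell from 16.8, 15.7 and 15.7 TPM in WT to 9.94, 10.8 and 10.5 TPM in GILZ KO (log2 fold change -0.68, standard error 0.09, adjusted p = 0.0351 from edgeR). Its near-identical copy Entpd4 had a log2 fold change of -0.60 (adjusted p = 0.281 from edgeR and 0.0218 from DESeq2). Between them lies Gm16867, at 9.94, 9.36 and 9.54 TPM in WT and 0, 0.52 and 0 TPM in GILZ KO (adjusted p = 0.0577 from edgeR and 0.00375 from DESeq2). These 3 genes span 248 kb, and how reads were divided among the copies is uncertain. Ide (chr19:37268743-37337852), which encodes insulin-degrading enzyme, was at 101.8, 83.5 and 66.9 TPM in WT and 47.5, 42.4 and 41.0 TPM in GILZ KO (log2 fold change -0.98, with an adjusted p of 0.0504 in edgeR and 1.73e-08 in DESeq2). In GILZ TG, Entpd4b was at 9.38 to 12.3 TPM, Gm16867 at 0 to 3.41 TPM and Ide at 39.3 to 60.5 TPM, below all WT libraries for each gene. After LPS the log2 fold change between GILZ KO and WT was 0.93 for Nnt, 1.45 for Wdfy1 and -1.18 for Ide (adjusted p = 0.00044, 0.000674 and 0.00158 from edgeR).

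Of the other genes that fell, Gdf3 (ENSMUSG00000030117, chr6:122605403-122610087), a ligand of the TGF-beta family, was at 26.2, 24.2 and 20.6 TPM in WT and 7.54, 5.16 and 6.07 TPM in GILZ KO (log2 fold change -1.95, standard error 0.27, adjusted p = 0.0351 from edgeR). In GILZ TG it was at 9.32, 9.25 and 3.85 TPM. Prl2c2 (ENSMUSG00000079092, chr13:12996125-13005383), a proliferin gene with several close copies, was at 92.1 to 131.8 TPM in WT, 54.9 to 66.2 TPM in GILZ KO and 44.5 to 60.7 TPM in GILZ TG. Its log2 fold change in GILZ KO was -0.93 (standard error 0.13, adjusted p = 0.0356 from edgeR). Both genes were thus lower than WT in each GILZ KO and each GILZ TG library, and the cause was not tested.

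Bcl2a1b (ENSMUSG00000089929, chr9:89199209-89207827), which encodes an antiapoptotic BCL2 relative and has near-identical copies, was low in GILZ KO and high in GILZ TG. It was at 129.5, 123.0 and 124.2 TPM in WT, at 94.3, 98.2 and 84.6 TPM in GILZ KO and at 182.2, 189.8 and 167.9 TPM in GILZ TG. The log2 fold change was -0.49 against WT (edgeR, standard error 0.07, adjusted p = 0.0356) and -0.99 against GILZ TG (adjusted p = 0.000138 from edgeR). No overlap was seen between any of the 3 genotypes.

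Cgnl1, Galnt12 and Mki67 were higher in GILZ KO than in both other genotypes. Cgnl1 (ENSMUSG00000032232, chr9:71626509-71771602), a cell junction protein related to cingulin, was at 32.7, 32.3 and 29.0 TPM in WT, 45.8, 49.6 and 44.5 TPM in GILZ KO and 28.2 to 36.4 TPM in GILZ TG. Its log2 fold change was 0.58 against WT (edgeR, standard error 0.07, adjusted p = 0.0218) and 0.59 against GILZ TG (adjusted p = 0.00403 from edgeR). Galnt12 (ENSMUSG00000039774, chr4:47091909-47123070), which starts O-linked glycosylation in the Golgi, was at 11.4, 11.3 and 11.6 TPM in WT, 18.4, 20.0 and 16.9 TPM in GILZ KO and 13.6 to 15.1 TPM in GILZ TG. The log2 fold change was 0.65 against WT (edgeR, standard error 0.08, adjusted p = 0.0302) and 0.35 against GILZ TG (adjusted p = 0.0437 from edgeR). Mki67 (ENSMUSG00000031004, chr7:135689784-135716361), the proliferation marker Ki-67, was at 99.6, 108.9 and 98.6 TPM in WT, 150.2, 138.8 and 137.3 TPM in GILZ KO and 87.1 to 96.5 TPM in GILZ TG. Its log2 fold change was 0.43 against WT (edgeR, standard error 0.06, adjusted p = 0.043) and 0.62 against GILZ TG (adjusted p = 0.0018 from edgeR).

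Among cell cycle genes, Mki67 was the one called by edgeR. Of 50 members, 29 had a higher mean in GILZ KO, the median log2 fold change was 0.021, and 4 were higher and 3 lower at an unadjusted p-value under 0.05, against 5.4% and 4.2% of all genes tested. Cenpe, a kinetochore motor, had a log2 fold change of 0.35 (adjusted p = 0.405 from edgeR). Ccne2 and E2f1, which drive entry into S phase, had log2 fold changes of -0.22 and -0.20 (adjusted p = 0.485 and 0.508 from edgeR). Without WT replicate 3 the median of the list was 0.164, with 5 members higher and 7 lower. In that fit 1029 of 12861 genes had an unadjusted p-value under 0.05 in either direction. Mki67 has a transcript of 10075 bases, and long transcripts tended to be higher in GILZ KO.

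Across 8 groups of genes of equal number ordered by transcript length, the median log2 fold change went from -0.055 in the shortest (median 764 bases) to 0.111 in the longest (median 5861 bases). Over all genes tested it was -0.002, with 49.2% of genes higher in GILZ KO. WT replicate 1 was at 0.115 for the longest genes, WT replicate 2 at 0.016 and WT replicate 3 at -0.121, while the GILZ KO libraries lay between 0.093 and 0.146. The WT libraries thus differed among themselves along transcript length by more than GILZ KO differed from WT replicate 1. With this trend removed from every library, 11 genes had an adjusted p-value under 0.05, 9 of the 12 among them. Mki67 was then at 0.22 on the log2 scale, with an adjusted p of 0.632 in edgeR. Prl2c2 and Bcl2a1b also missed the threshold (adjusted p = 0.145 and 0.118 from edgeR), with log2 fold changes of -0.89 and -0.43 that stayed near the earlier ones. Igf2bp3, which encodes an RNA-binding protein of the fetal type, and Ide were gained.

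**Figure D2:**
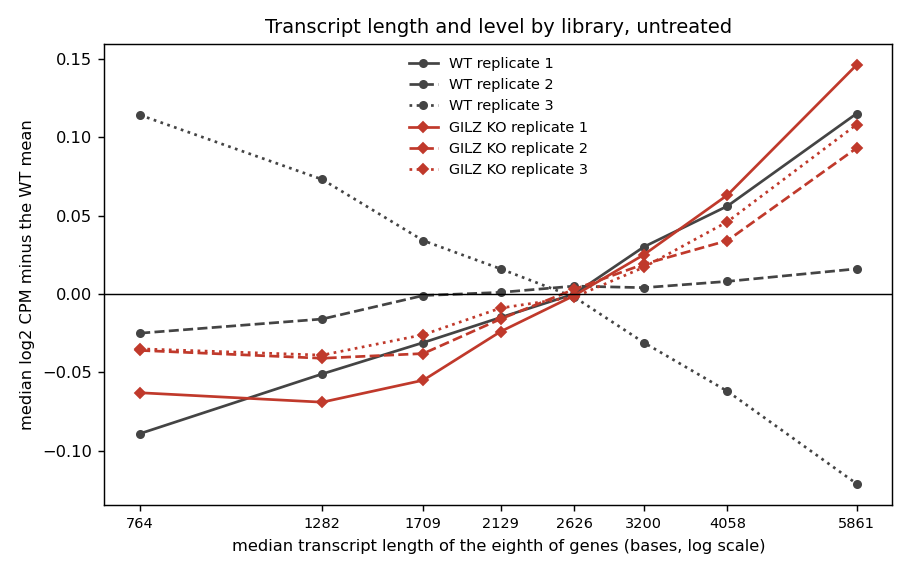
Median over genes of log2 CPM (counts corrected for depth) minus the WT mean, for 8 groups of 1577 to 1579 genes by transcript length in bases (log axis), with 1 line per library. The 3 GILZ KO lines and WT replicate 1 go up with length to between 0.093 and 0.146, and WT replicate 3 goes down to -0.121.

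DESeq2, the test the study used, called 79 genes or 0.626% of those it gave an adjusted p-value, 50 of them higher in GILZ KO and all 12 of the edgeR calls included. Among the others with the smallest p-values in edgeR, Efcab7, a gene for a ciliary protein, was at 3.05 to 3.99 TPM in WT, 8.55 to 10.2 TPM in GILZ KO and 9.40 to 9.81 TPM in GILZ TG (log2 fold change 1.20, with an adjusted p of 0.0504 in edgeR and 0.00034 in DESeq2). Dynlt1b, a dynein light chain gene with close copies, was at 166.3 to 179.3 TPM in WT, 299.7 to 314.8 TPM in GILZ KO and 136.5 to 206.0 TPM in GILZ TG (log2 fold change 0.77, with an adjusted p of 0.0577 in edgeR and 1.09e-06 in DESeq2). Igf2bp3 was at 6.54 to 7.22 TPM in WT, 2.76 to 3.80 TPM in GILZ KO and 1.09 to 2.0 TPM in GILZ TG (log2 fold change of GILZ KO against WT -1.15, with an adjusted p of 0.0563 in edgeR and 1.89e-06 in DESeq2). Igfbp4, which encodes a secreted protein that binds insulin-like growth factors, was at 168.3 to 176.6 TPM in WT and 111.2 to 135.5 TPM in GILZ KO (log2 fold change -0.46, with an adjusted p of 0.0978 in edgeR and 2.78e-05 in DESeq2). Its level in GILZ TG was 152.7 to 186.4 TPM. Each of these genes was separate between GILZ KO and WT. The rest of those named by the same rule were Gm8995, Cntrl, Cd300ld3 and Tiam1 with higher and Snx15 and Hmox1 with lower levels in GILZ KO.

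Some genes with large fold changes that edgeR did not call varied widely within GILZ KO or within WT. Of 250 genes with an unadjusted p-value under 0.01, no overlap and a mean of 5 TPM or more in the higher group, the pseudogene Gm8624 had the largest rise. It was at 34.1 TPM in GILZ KO replicate 1, at 3.14 and 5.46 TPM in replicates 2 and 3, and at 0.98 to 1.82 TPM in WT. Its log2 fold change was 3.28, with an adjusted p of 0.301 in edgeR and 0.00193 in DESeq2. Gm26377, annotated as a miRNA gene, was at 504.6 to 1166 TPM in WT and 1774 to 2164 TPM in GILZ KO (log2 fold change 1.03, with an adjusted p of 0.323 in edgeR and 0.04 in DESeq2). The gene is short (chr9:78478528-78478635), so these TPM values rest on only 195 to 448 reads per library in WT and 435 to 668 in GILZ KO. Gm17092, an antisense gene, was at 5.08 to 7.43 TPM in WT and 1.57 to 3.40 TPM in GILZ KO (log2 fold change -1.47, with an adjusted p of 0.289 in edgeR and 0.0447 in DESeq2). The histone gene Hist1h2ao was at 42.2 to 88.1 TPM in WT and 100.8 to 197.9 TPM in GILZ KO. Without overlap between the groups, 8.91% of all genes tested were higher and 8.61% lower in GILZ KO.

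Genes next to the targeted loci did not pass the threshold. Of 12 genes tested within 2 Mb of Tsc22d3, 1 had an unadjusted p-value under 0.05, Tbc1d8b, with a log2 fold change of 0.13. Around Lyz2 it was 3 of 19 genes, namely 5330438D12Rik at -1.12, Lyz1 at 0.58 and Frs2 at 0.19 on the log2 scale. Over all genes tested, 5.4% were higher and 4.2% lower at this p-value. 5330438D12Rik had few reads, with 10 to 14 per library in WT and 2 to 7 in GILZ KO.

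A difference below the threshold for single genes was seen in type I interferon-stimulated genes, whose products sense and block viruses. This list was chosen with earlier results of these data known. Its members respond to the same signal, so the counts below are not independent observations. Of 49 genes listed, 47 could be tested and 40 had a higher mean in GILZ KO. At an unadjusted p-value under 0.05, 26 were higher and 0 lower, where 5.4% of all genes were higher and 4.2% lower. The median log2 fold change was 0.259, against -0.002 over all genes. In 24 of them the GILZ KO libraries lay above all WT libraries, against 8.91% of all genes, and in 0 below. No member had an adjusted p-value under 0.05 with edgeR, the smallest being 0.217, while DESeq2 called 4, namely Parp14, Ifit1, Ifit3 and Ifit2.

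To show where the core of the ISRE lies, the 250 bases before the start site are given for 4 genes with a match. They come from RefSeq (GRCm38.p6) and run 5' to 3' on the strand of the gene. Members without a match are not shown. Ifit1 and Ifit3 were chosen as members called by DESeq2, Isg15 as a widely used marker of the response, and Igtp as an interferon-inducible GTPase. Their coordinates are chr19:34640639-34640888 (plus strand), chr19:34583279-34583528 (plus strand), chr4:156200819-156201068 (minus strand) and chr11:58199306-58199555 (plus strand). Capitals mark each match, on either strand, to the core of the ISRE, searched as GAAA, any 2 bases and GAAA again. Overlapping matches run together.
Ifit1: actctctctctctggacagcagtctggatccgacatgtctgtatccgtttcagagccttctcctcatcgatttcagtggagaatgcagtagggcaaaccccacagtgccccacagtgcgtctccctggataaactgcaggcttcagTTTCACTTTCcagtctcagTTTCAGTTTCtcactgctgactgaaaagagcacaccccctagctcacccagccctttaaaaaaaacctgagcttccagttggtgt
Ifit3: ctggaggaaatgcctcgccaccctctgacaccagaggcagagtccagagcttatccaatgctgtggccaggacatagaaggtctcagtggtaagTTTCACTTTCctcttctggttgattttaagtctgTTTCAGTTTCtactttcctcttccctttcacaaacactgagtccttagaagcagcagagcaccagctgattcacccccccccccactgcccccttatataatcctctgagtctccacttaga
Isg15: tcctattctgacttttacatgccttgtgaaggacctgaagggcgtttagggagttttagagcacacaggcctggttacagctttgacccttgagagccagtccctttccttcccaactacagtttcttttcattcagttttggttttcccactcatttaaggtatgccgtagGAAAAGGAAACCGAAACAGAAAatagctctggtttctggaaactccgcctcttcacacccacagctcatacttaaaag
Igtp: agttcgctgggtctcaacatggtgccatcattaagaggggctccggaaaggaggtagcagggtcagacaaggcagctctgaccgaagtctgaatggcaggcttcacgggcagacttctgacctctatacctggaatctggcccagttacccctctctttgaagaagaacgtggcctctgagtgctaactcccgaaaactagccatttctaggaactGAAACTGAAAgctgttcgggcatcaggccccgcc

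Isg15, which encodes a ubiquitin-like modifier, was at 19.3, 16.8 and 17.4 TPM in WT and 22.2, 24.7 and 23.8 TPM in GILZ KO (0.35 on the log2 scale, adjusted p = 0.45 from edgeR). Ifit1 and Ifit3 each held 2 matches, Isg15 held 3 that overlap, and Igtp held 1. Of 36 tested interferon-stimulated genes with a promoter in the table (from 250 bases before to 50 after the start), 20 or 55.6% held the motif, and among the GTPases below 8 of 9. It was found in 3.44% of all 32851 promoters and in 3.25% of the promoters of tested genes. The motif was present in 13 of the 19 members with an unadjusted p-value under 0.05 and in 7 of the other 17. A match describes the letters in this window and does not show that a factor binds there.

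Ifit1 (ENSMUSG00000034459, chr19:34640871-34650009), which binds viral RNA that lacks a complete cap, was at 6.47, 5.78 and 6.20 TPM in WT and 16.9, 9.95 and 9.42 TPM in GILZ KO. Each GILZ KO library lay above each WT library and replicate 1 above the other two (log2 fold change 0.94, standard error 0.22, adjusted p = 0.289 from edgeR and 0.0158 from DESeq2). Its neighbours Ifit2 (5.16 to 5.76 TPM in WT, 7.74 to 14.9 TPM in GILZ KO) and Ifit3 (7.01 to 9.71 TPM and 11.8 to 21.4 TPM) were at 0.89 and 0.80 on the log2 scale. Cmpk2, a mitochondrial nucleotide kinase induced by interferon, was at 7.68, 7.51 and 6.12 TPM in WT and 21.1, 11.3 and 9.01 TPM in GILZ KO (log2 fold change 0.93, adjusted p = 0.397 from edgeR). Mx1, a gene of the Mx GTPase family, was at 2.87, 3.35 and 3.04 TPM in WT and 8.91, 5.19 and 3.63 TPM in GILZ KO (log2 fold change 0.89, adjusted p = 0.397 from edgeR). GILZ KO replicate 1 was again the highest for both.

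Other members were closer to each other within GILZ KO. Parp14, an ADP-ribosyltransferase, was at 30.0 to 37.6 TPM in WT and 40.9 to 47.5 TPM in GILZ KO (log2 fold change 0.34, standard error 0.07, adjusted p = 0.217 from edgeR and 0.00374 from DESeq2). Trim30a, which restrains TLR signalling, was at 32.0, 31.0 and 31.8 TPM in WT and 46.0, 39.7 and 42.8 TPM in GILZ KO (0.35 on the log2 scale). Eif2ak2, the kinase PKR that stops translation on double-stranded RNA, was at 26.4 to 33.6 TPM in WT and 37.4 to 42.2 TPM in GILZ KO (0.27 on the log2 scale). Zbp1, a sensor of Z-form nucleic acids that can start necroptosis, was at 6.61 to 7.58 TPM in WT and 9.83 to 10.2 TPM in GILZ KO (0.45 on the log2 scale). All 4 were separate between the groups.

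Some members overlapped between the genotypes. Irf7, which amplifies the response, was at 18.8 to 26.2 TPM in WT and 21.9 to 28.7 TPM in GILZ KO, with overlap (0.22 on the log2 scale). Bst2, also known as tetherin, was at 220.6 to 261.3 TPM in WT and 211.3 to 233.4 TPM in GILZ KO and had a log2 fold change of -0.15 (adjusted p = 0.533 from edgeR), so not every member had a higher mean in GILZ KO.

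By library, the median over the list of the log2 CPM relative to the WT mean was 0.065, -0.016 and -0.057 in WT, 0.346, 0.202 and 0.199 in GILZ KO and -0.058, -0.215 and 0.084 in GILZ TG. GILZ KO replicate 1 lay highest. Without it the median log2 fold change was 0.19, and 17 members were higher at an unadjusted p-value under 0.05 in a fit where 749 of 12893 genes reached it in either direction. Without WT replicate 2 the count was also 17, with 2 members lower, in a fit where 820 of 12905 genes reached that p-value in either direction. With the trend on transcript length removed the median was 0.238, with 23 members higher and 0 lower, against 4.13% and 4.22% of all genes.

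Interferon-inducible GTPases, which attack the vacuoles of intracellular pathogens, had a median log2 fold change of 0.41 over 12 genes tested of 16 listed. In 11 the mean was higher in GILZ KO, and 4 were higher and 0 lower at an unadjusted p-value under 0.05, against 5.4% and 4.2% of all genes. No member passed the adjusted threshold with edgeR or DESeq2. Gbp3 was at 1.77 to 2.24 TPM in WT and 3.06 to 4.31 TPM in GILZ KO (0.76 on the log2 scale), and Igtp was at 9.81 to 11.1 TPM and 12.3 to 13.6 TPM (0.31 on the log2 scale). The list differed between the GILZ KO libraries, with medians of 0.633, 0.351 and 0.079 for replicates 1, 2 and 3 against -0.024 to 0.022 in WT. Without replicate 1 the median log2 fold change was 0.254, and without replicate 3 the count of higher members was 8. In the fit without GILZ KO replicate 3, 1000 of 12910 genes had an unadjusted p-value under 0.05 in either direction. Reads of close copies among the Ifit3, Mx, Oas1, Slfn, Gbp and Tgtp genes may be divided uncertainly.

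After LPS the same genes were not higher in GILZ KO. Of 48 type I interferon-stimulated genes tested, 46 had a lower mean in GILZ KO than in WT, with a median of -0.128, and 8 were lower and 0 higher at an unadjusted p-value under 0.05, against 4.82% and 4.81% of all genes. For the 14 GTPases the median was -0.178, with 6 lower and 0 higher. The difference between the log2 fold changes (LPS minus untreated), tested over all 18 libraries and thus with the same untreated libraries, had a median of -0.398 for the 48 genes. It was negative at an unadjusted p-value under 0.05 for 29 and positive for 0, against 4.3% and 2.07% of all genes, and negative for 10 of the 14 GTPases. With an adjusted p-value under 0.05 there were 0 members in either list with edgeR, while DESeq2 called 3 of the first list (Ddx60, Ifit1 and Mx2) and 2 of the second (Gbp3 and Tgtp1).

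**Figure D3:**
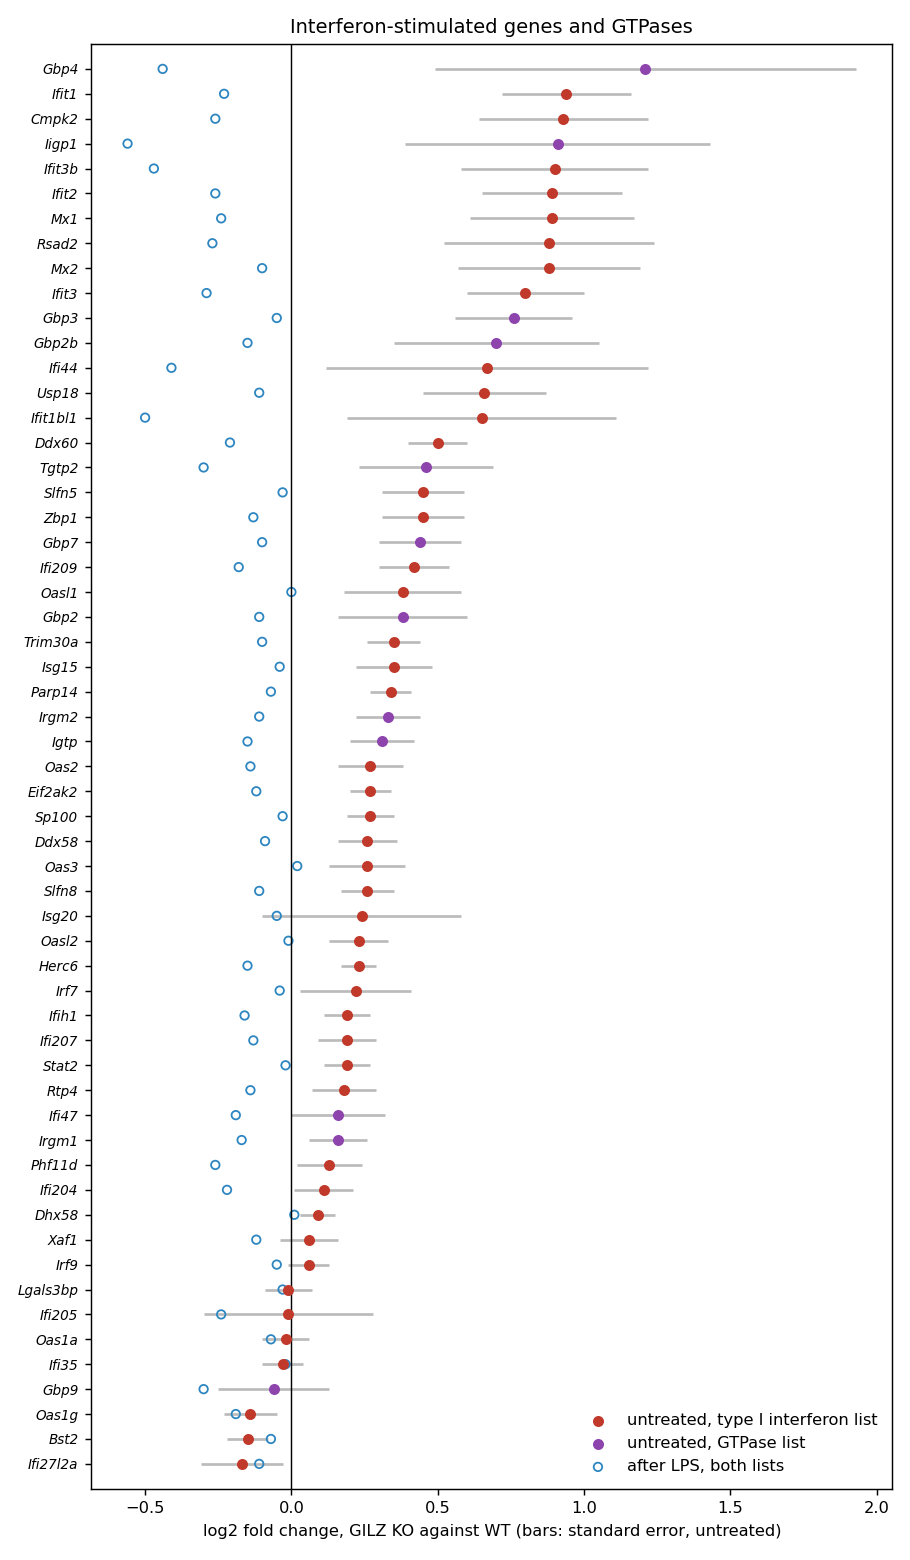
Log2 fold change between GILZ KO and WT for the tested interferon-stimulated genes (red, 1 member not shown) and interferon-inducible GTPase (purple, Ifi47 of both lists included) in untreated BMMs, with bars of 1 standard error, and for the same genes after LPS (open circles). Most untreated points lie right of 0, with a median of 0.259 and 0.41 for the lists, and most LPS points left of it, with -0.128 and -0.178.

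Among inflammasome and pyroptosis genes, 6 of 22 were higher and 1 lower at an unadjusted p-value under 0.05 (5.4% and 4.2% of all genes), with a median of 0.093. Without GILZ KO replicate 2 the count of higher members was 3 and the median 0.058, and without GILZ KO replicate 1 they were 4 and 0.053. In these fits 900 of 12910 and 749 of 12893 genes reached that p-value in either direction. The higher members were mostly sensors. Nlrp1b, of the NLRP1 family, was at 9.16, 8.05 and 7.34 TPM in WT and 11.6, 10.7 and 12.4 TPM in GILZ KO (log2 fold change 0.46, standard error 0.11, adjusted p = 0.281 from edgeR and 0.0395 from DESeq2). Naip5 and Naip6, which bind flagellin for Nlrc4, were at 11.8 to 12.5 and 7.80 to 9.07 TPM in WT and 14.5 to 15.7 and 10.4 to 11.7 TPM in GILZ KO (0.30 and 0.33 on the log2 scale). Nlrc4 had a log2 fold change of 0.21 and Casp1, the protease that the inflammasome activates, one of 0.18. Each of these 5 genes was separate between the groups, as were 8.91% of all genes tested with GILZ KO higher. None of the 5 passed the adjusted threshold with edgeR. Nlrp3 was at 65.7 to 69.6 TPM in WT and 61.7 to 72.0 TPM in GILZ KO (-0.01 on the log2 scale). With the length trend removed, 5 members were higher and 0 lower, against 4.13% and 4.22% of all genes. Nlrp1b, Naip5 and Naip6 were then at 0.41, 0.20 and 0.19 on the log2 scale. The unadjusted p-value of Naip6 was 0.0622 in edgeR.

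Complement genes differed in both directions. The 3 chains of C1q, which start the classical pathway and coat dying cells, were lower in every GILZ KO library than in WT. C1qa was at 123.1, 123.5 and 121.4 TPM in WT and 63.3, 78.2 and 78.3 TPM in GILZ KO (log2 fold change -0.79, standard error 0.23, adjusted p = 0.386 from edgeR). It passed the adjusted threshold in 1 of 16 alternative ways of fitting the data. GILZ TG varied widely, at 203.3, 258.7 and 112.5 TPM, and the log2 fold change of GILZ KO against GILZ TG was -1.42 (adjusted p = 0.0139 from edgeR). C1qb was at 952.5 to 1020 TPM and 729.5 to 873.6 TPM and C1qc at 461.6 to 550.2 TPM and 358.4 to 445.8 TPM, with -0.33 on the log2 scale for both. In bulk libraries such as these, fewer cells that make a transcript and less of it per cell cannot be told apart. C3 was at 26.7 to 36.1 TPM in WT and 45.3 to 46.9 TPM in GILZ KO (0.40 on the log2 scale), and C5ar2, a receptor for C5a, had a log2 fold change of 0.32. Of the 13 genes tested, 2 were higher and 3 lower at an unadjusted p-value under 0.05 (5.4% and 4.2% of all genes). The count of lower members was 1 without GILZ KO replicate 1 or without WT replicate 1. In these fits 749 of 12893 and 1634 of 12906 genes reached that p-value in either direction. With all 9 untreated libraries, 0 members passed the adjusted threshold with edgeR at its main settings or with DESeq2.

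Of 45 phagocytic and scavenger receptor genes, 1 was higher and 4 lower at an unadjusted p-value under 0.05, against 5.4% and 4.2% of all genes. Axl, a receptor for dying cells, had overlapping levels with 12.4 to 16.4 TPM in WT, 9.80 to 13.9 TPM in GILZ KO and 39.0 to 44.4 TPM in GILZ TG (log2 fold change -0.53, with an adjusted p of 0.289 in edgeR and 0.0158 in DESeq2). Gas6, its ligand, was at 133.8 to 142.4 TPM in WT and 111.2 to 120.6 TPM in GILZ KO (-0.27 on the log2 scale). Itgam, a chain of complement receptor 3, was at 368.4 to 399.6 TPM in WT and 428.7 to 465.9 TPM in GILZ KO (0.18 on the log2 scale). In the list of superoxide production and antioxidants, Nnt rose as above and 4 of 37 genes were lower at an unadjusted p-value under 0.05. Hmox1, which degrades haem, was at 1940, 1760 and 1500 TPM in WT and 1472, 1293 and 1399 TPM in GILZ KO (log2 fold change -0.36, with an adjusted p of 0.199 in edgeR and 0.00042 in DESeq2). Ncf1, a subunit of the phagocyte oxidase with known pseudogene copies, was at 303.6 to 311.2 TPM in WT and 277.2 to 281.5 TPM in GILZ KO (-0.24 on the log2 scale). Both were separate between the groups.

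Few inflammatory and glucocorticoid-related genes reached an unadjusted p-value under 0.05, against 5.4% higher and 4.2% lower over all genes. Of 32 genes of the glucocorticoid receptor and its targets, 0 were higher and 1 lower at an unadjusted p-value under 0.05, the metallothionein Mt2 (-0.64 on the log2 scale, adjusted p = 0.425 from edgeR), with a median of -0.059. Of 30 cytokine and chemokine genes, 1 was higher and 2 lower, with a median of -0.096 that turned to 0.079 without WT replicate 3. The higher one was Ccl5, a chemokine for T cells and monocytes, at 4.29 to 4.43 TPM in WT and 17.1, 5.63 and 5.44 TPM in GILZ KO (log2 fold change 1.07, adjusted p = 0.483 from edgeR), with replicate 1 far above the other two. The lower ones were Ccl3 and Il1rn at -0.23 and -0.21 on the log2 scale. Of 45 genes of the LPS receptor and NF-kB pathway, 3 were higher and 2 lower, with a median of 0.028, and of 34 apoptosis genes 2 and 2, with -0.003. Bcl2a1b among them is described above, and Trp53, the p53 gene, had a log2 fold change of -0.17 (adjusted p = 0.301 from edgeR and 0.0332 from DESeq2). In none of these lists but that of apoptosis did a member pass the adjusted threshold with edgeR, and DESeq2 called 0, 0, 0 and 2 members in the order given.

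Of 77 mitochondrial ribosomal protein genes, with a median transcript of 925 bases, 67 had a lower mean in GILZ KO, 10 were lower and 0 higher at an unadjusted p-value under 0.05 (4.2% and 5.4% of all genes), and the median was -0.076. The count of lower members was 19 without WT replicate 1, 3 without WT replicate 3 and 5 without GILZ KO replicate 1. In these fits 1634 of 12906, 1029 of 12861 and 749 of 12893 genes reached that p-value in either direction, against 1211 of 12621 with all libraries. The median of the list was -0.115 without WT replicate 1 and -0.036 without WT replicate 3. The libraries overlapped, with -0.093 to -0.068 in GILZ KO against -0.081, -0.006 and 0.091 in WT. Mrpl15, the one with the smallest p-value, was at 103.1 to 105.0 TPM in WT and 89.6 to 96.0 TPM in GILZ KO (-0.21 on the log2 scale). With the length trend removed the median was -0.04, and 7 were lower and 0 higher, against 4.22% and 4.13% of all genes. For 37 subunits of respiratory complex I and 40 of complexes II to V the median was -0.06 in both lists with 2 and 1 genes lower, and -0.01 and -0.006 with the length trend removed. Transcripts encoded by the mitochondrial genome were not analysed here. Of 33 genes of cholesterol and fatty acid synthesis, 30 had a higher mean in GILZ KO and 0 had an unadjusted p-value under 0.05. Their median by library was 0.069 to 0.081 in GILZ KO, within the WT range of -0.103 to 0.111. No member of these 4 lists passed the adjusted threshold with edgeR or DESeq2.

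The remaining lists held no member called by edgeR besides Lyz2. Lysosomal proteases and hydrolases (53 genes, median -0.002) and glycolysis genes (30 genes, 0.021) had at most 2 members in a direction at an unadjusted p-value under 0.05, as had MHC class I genes (20 genes, 0.003), LXR targets (18 genes, -0.014) and genes of arginine metabolism (13 genes, -0.05). Arg1, which competes with nitric oxide synthase for arginine, was at 9.01 to 15.1 TPM in WT and 5.47 to 8.34 TPM in GILZ KO (log2 fold change -0.76, adjusted p = 0.425 from edgeR). No gene of the lysosomal proton pump (18 genes, -0.041), of MHC class II presentation (10 genes, 0.183) or of the matrix metalloproteinases and their inhibitors (26 genes, -0.10) had an unadjusted p-value under 0.05. The MHC class II gene H2-Aa was at 6.26, 6.84 and 12.7 TPM in WT and 12.6 to 13.7 TPM in GILZ KO, with overlap through WT replicate 3. Of the 10 genes of its list 9 had a higher mean in GILZ KO. Without WT replicate 3, 4 members were higher at an unadjusted p-value under 0.05, which 1029 of 12861 genes reached in that fit in either direction. The median of the list lay between 0.093 and 0.265 with each library left out. The unfolded protein and integrated stress response (35 genes, 0.052) had 3 higher members, among them Eif2ak3, the kinase PERK (0.22 on the log2 scale), and the immediate early factors (30 genes, -0.082) had 4 lower members, among them Maff (-0.36), against 5.4% of all genes higher and 4.2% lower. The count for the immediate early factors was 0 without GILZ KO replicate 1, and that for the stress response was 1 without GILZ KO replicate 2 or 3 or WT replicate 2. In these fits, in the order given, 749 of 12893, 900 of 12910, 1000 of 12910 and 820 of 12905 genes reached that p-value in either direction. The 12 lysozyme and granule genes tested, Lyz2 included, also held Padi4, a histone deiminase, at 3.80 to 4.25 TPM in WT and 5.22 to 9.22 TPM in GILZ KO (0.74 on the log2 scale, adjusted p = 0.394 from edgeR).

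**Figure D4:**
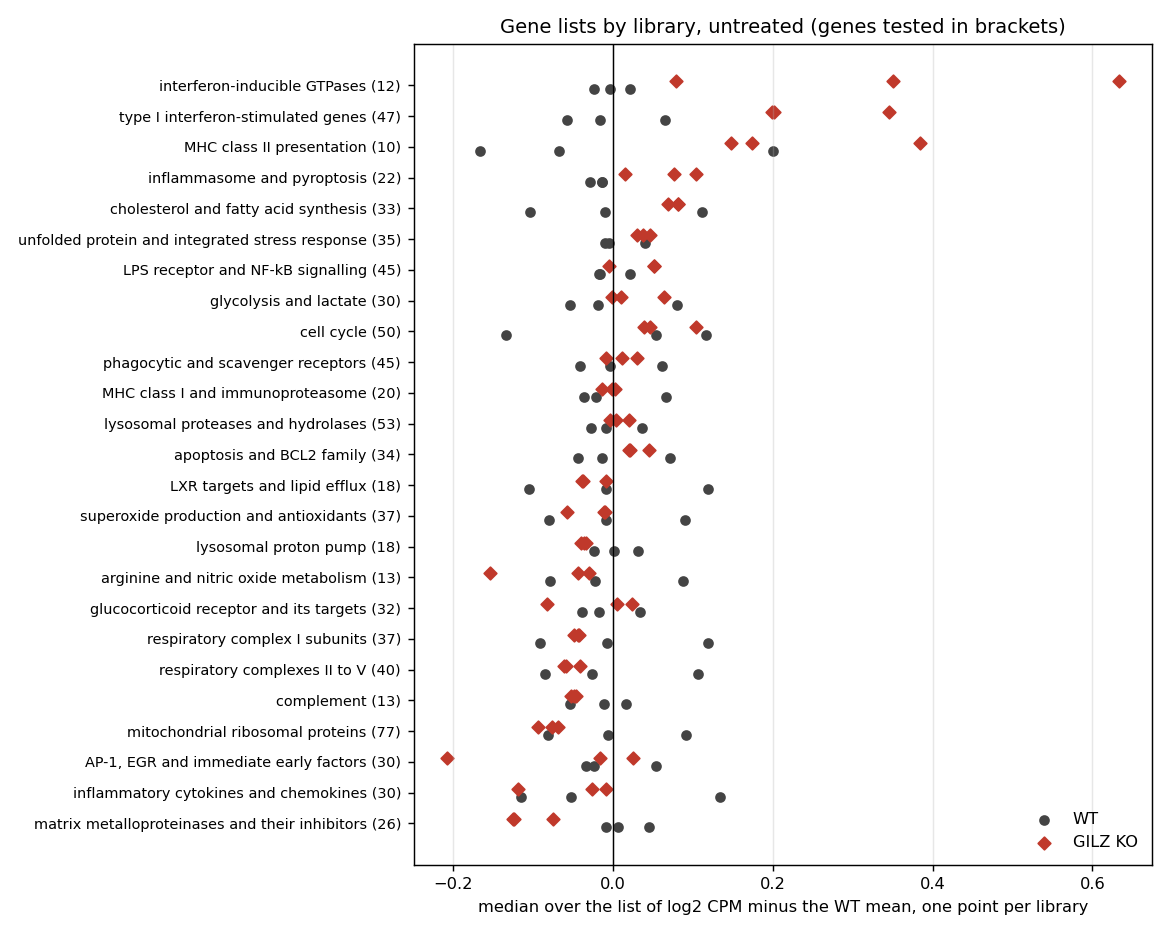
Median over each gene list of the log2 CPM minus the WT mean in untreated BMMs, with 1 point per library (3 WT and 3 GILZ KO) and the number of genes tested in brackets. The type I interferon list, with 0.199 to 0.346 in GILZ KO against -0.057 to 0.065 in WT, and the GTPases lie apart from WT, as do the smaller medians of the inflammasome, proton pump and metalloproteinase lists, and in the other lists shown (the substrain and lysozyme lists are not) the groups overlap.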

How the data were processed

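RNA of untreated BMMs was sequenced from 3 WT, 3 GILZ KO and 3 GILZ TG preparations (75-base reads of a directional poly(A) library, for which the strand setting of the counting is not given in the sources used here). The authors mapped reads to GRCm38 (mm10) with the grape-nf pipeline and deposited, per library and gene, expected counts, TPM values and the mean transcript length. Deposited tables of the authors' own comparisons were not used. Expected counts were rounded and filtered with filterByExpr. TMM factors and the quasi-likelihood F-test came from edgeR 4.0.16 (R 4.3.3), fitted over the 9 untreated libraries with genotype as the only factor. DESeq2 1.42.0 and limma 3.58.1 served as alternatives. P-values were adjusted by Benjamini-Hochberg over all genes tested, at 0.05. An exact permutation test of 3 against 3 libraries cannot go below 0.10, so p-values rest on the spread shared across genes. Coordinates come from GENCODE M21 (GRCm38). Library medians use log2 CPM with a prior count of 2. The length trend was a lowess of each library on log2 transcript length, entered as an offset and chosen after seeing the data. Scripts were tested on simulated counts. The genes named were chosen from Tsc22d3, Lyz2, all edgeR calls, up to 6 further DESeq2 calls and the 6 largest folds (p under 0.01, no overlap) per direction, both with a mean of 5 TPM or more, and up to 4 genes of smallest p-value per list and within 2 Mb of each locus, besides defining members. Members and the 28 lists were chosen with earlier results of these data known. Replicate numbers did not pair WT with GILZ KO (correlations of deviations 0.0256, 0.0963 and -0.0995). Of the listed genes, 1 is counted in its list but is not reported here by name.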

Additional observations from a re-analysis of the deposited data

Results flagged for a closer look

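For 2 genes the difference between GILZ KO and WT changed with LPS in the test of the difference itself over all 18 libraries. The log2 fold change of Tsc22d3 between GILZ KO and WT was 2.02 higher after LPS than in untreated BMMs (adjusted p = 0.000782 from edgeR). It was -2.74 untreated and -0.69 after LPS (adjusted p = 0.15 from edgeR for the latter). In WT the level fell from 14.9 to 18.8 TPM untreated to 4.56 to 5.81 TPM after LPS. In GILZ KO it was low in both, at 1.89 to 2.81 TPM untreated and 2.50 to 3.28 TPM after LPS. For Kitl the difference was -1.06 (adjusted p = 0.0372 from edgeR), with 1.08 untreated and 0.05 after LPS. Its level after LPS was 12.25 to 13.2 TPM in WT and 12.15 to 17.16 TPM in GILZ KO, below the untreated levels of both.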

How the results depend on the processing

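Tsc22d3, Lyz2, Kitl, Nnt and Wdfy1 passed the threshold in all 16 alternatives, and the 12 genes called kept their direction in each. With each replicate left out in turn, 5 to 6 genes were called, 3 of them higher in each case and 2 to 3 lower. Of the other 7 genes, Prl2c2 alone was called in such a fit, without WT replicate 3. DESeq2 called 79 genes, 50 higher and 29 lower. Without a filter on low counts there were 21, with 10 higher and 11 lower, and with only the 6 libraries compared 20, of which 12 were lower. With limma on log2(TPM + 1) or log2(TPM + 0.1), 2 genes were lower among 8 called. With the replicate number as a block, 9 genes were called, but the numbers did not pair these samples. For the change with LPS there were 2 genes, against 1 with DESeq2's size factors, 20 with DESeq2 and 8 with the replicate block. Timp2 turned from -0.10 to 0.01 and Nr1h3 from -0.17 to 0.08 on both TPM scales, and neither was called. The median of the interferon-stimulated genes lay between 0.19 and 0.313 with each replicate left out. The causes were not tested. With 3 libraries per group, small differences in genes of few reads could not be detected.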
